A study of Rattus norvegicus with 24 samples.

Results

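Whole rat brain after 10 exposures to halothane was set against control, on 3 arrays and 12 arrays, which are 15 of the 24 arrays of the series. The members are all arrays whose titles name either 10 halothane exposures or control, and every probe set other than the AFFX hybridisation controls was compared. Per the labels, an exposed sample had 90 min of 0.8% halothane 2 times a day, with 3 h of recovery between, on 5 days, which makes 10 exposures. Control samples had 3 min of halothane before they were perfused with chilled saline, so halothane had reached the brain in both groups and control is not free of the agent. A matched sham exposure is not described. The sources used here give no strain, sex, age or interval from the last exposure to the taking of tissue. Nothing in them ties replicates to separate animals, and p-values therefore reflect the spread among these samples, some of which may be technical. Total RNA of 1 sample was hybridised to 1 single-colour oligonucleotide array, on which several short probes against 1 transcript form a probe set. In bulk tissue, fewer cells of a type and less RNA per cell cannot be told apart.

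Halothane is a halogenated inhaled anaesthetic that strengthens inhibitory chloride channels of the GABA-A and glycine receptor families, opens background potassium channels and weakens excitatory transmission through nicotinic and glutamate receptors. Part of an inhaled dose is oxidised by cytochrome P450 enzymes, mainly in liver, to trifluoroacetylated products and bromide. Conjugation enzymes attach sulfate, glucuronate or glutathione to many drugs and hormones, and glutathione synthesis is among the antioxidant functions under the transcription factor Nfe2l2. In neurons, firing switches on immediate early genes such as Egr1, Junb and Arc, and it also raises secreted peptide precursors such as Vgf, whose promoter carries a cAMP response element.

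Promoter sequences are shown for the named genes that passed the test, Sult1a1 and Phaf1, and for Vgf and Gclm, a peptide precursor and an antioxidant gene whose values are described further on and whose promoters hold a match to a searched motif. Each is the 250 bases before the annotated start, 5′ to 3′ on the gene's strand, from RefSeq, build GRCr8: Sult1a1 at chr1:190706113-190706362, minus strand; Phaf1 at chr19:50011188-50011437, plus strand; Vgf at chr12:25277021-25277270, minus strand; Gclm at chr2:213031885-213032134, plus strand. Capitals mark matches, on either strand, to the cAMP response element TGACGTCA and to the antioxidant response element core TGACNNNGC.
Sult1a1: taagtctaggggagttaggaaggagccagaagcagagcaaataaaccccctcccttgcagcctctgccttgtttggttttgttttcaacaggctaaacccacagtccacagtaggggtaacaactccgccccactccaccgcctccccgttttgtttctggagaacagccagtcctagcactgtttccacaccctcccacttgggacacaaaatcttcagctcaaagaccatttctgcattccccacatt
Phaf1: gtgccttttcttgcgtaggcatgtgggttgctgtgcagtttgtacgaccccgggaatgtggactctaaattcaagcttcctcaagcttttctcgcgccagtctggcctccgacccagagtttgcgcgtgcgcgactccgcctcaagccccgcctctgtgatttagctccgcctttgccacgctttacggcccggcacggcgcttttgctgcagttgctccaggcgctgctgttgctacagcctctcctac
Vgf: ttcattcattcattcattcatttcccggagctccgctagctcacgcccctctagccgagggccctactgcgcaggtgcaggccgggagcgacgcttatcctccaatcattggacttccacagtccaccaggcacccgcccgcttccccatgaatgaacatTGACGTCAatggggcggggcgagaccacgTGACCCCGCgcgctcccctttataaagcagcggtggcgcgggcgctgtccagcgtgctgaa
Gclm: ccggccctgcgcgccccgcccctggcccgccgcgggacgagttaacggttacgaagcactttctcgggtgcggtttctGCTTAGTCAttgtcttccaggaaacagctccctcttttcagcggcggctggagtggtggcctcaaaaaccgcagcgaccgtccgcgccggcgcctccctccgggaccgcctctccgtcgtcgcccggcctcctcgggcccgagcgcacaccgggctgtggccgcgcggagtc
In Vgf a TGACGTCA begins 90 bases before the start and a TGACNNNGC 61 bases before it, and the matches do not overlap. Gclm holds TGACNNNGC 172 bases before the start, on the opposite strand. Sult1a1 and Phaf1 hold neither motif, and none of the 4 holds the glucocorticoid receptor palindrome, which was searched as GNACA followed after any 3 bases by TGTNC. Junb, Egr1, Alas1, Nfe2l2 and Sgk1, described further on, were also searched, and their 250 bases hold no match to any of these motifs. Among all 33469 promoters of this length, 1.59% hold TGACGTCA, 10.1% hold TGACNNNGC and 0.373% hold the palindrome. A match describes these letters and no binding was measured.

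Values under 16.5, the 25th percentile of the deposited intensities, were set to this floor before log2 was taken, so fold changes of dim probe sets are understated. Of the 8799 probe sets, 7389 were above the floor on at least 3 of the 24 arrays and were tested. Every array had nearly the same 2% trimmed mean, from 150.1 to 150.2. The 3 halothane arrays resembled the controls in median signal (56.4 to 58.6, against 53.5 to 64.9), in probe sets above the floor (6406 to 6534, against 6333 to 6762) and in the 3′ to 5′ ratio of Gapdh probe sets, which follows RNA integrity (0.889 to 0.923, against 0.877 to 1.08). Log2 values correlated across probe sets at 0.952 to 0.976 among the halothane arrays and at 0.939 to 0.974 between them and the controls, and no arrays held identical values. Bacterial spike-in transcripts, added during preparation, separated halothane array 3 (mean log2 signal 9.93) from arrays 1 and 2 (8.35 and 8.29), and 5 of the 12 controls shared the higher level. Array 3 is therefore named where a result rests on it. Among the 36 gene lists described further on, leaving out 1 halothane array turned the sign of the median in 14, none of which had a median over 0.15 in size, and moved it by over 1.5 times in 15 others. The median stayed within 1.5 times in the remaining 7, which were immediate early genes, neuropeptide precursors, corticosterone-responsive genes, cholesterol synthesis, monoamine signalling, caspases with the Bcl2 family, and blood markers. With the replicate number as a block their medians were, in the same order, -0.12, -0.04, 0.15, -0.25, -0.03, -0.07 and -0.01. Neuron markers such as Snap25 and Nefl, a list of 21 measured genes, had a mean log2 signal of 9.27 to 9.56 on the halothane arrays and 9.38 to 9.59 in control, with array 3 below every control.

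After 10 exposures 3 probe sets rose and 0 fell at an adjusted p under 0.05 by limma, which is 0.0406% of those tested. They represent the sulfotransferase gene Sult1a1, the autophagy gene Phaf1 and M33648_at, a probe set without a gene symbol in the annotation used. Before adjustment, 556 probe sets (7.52%) had a p under 0.05, of which 250 were higher (3.38%) and 306 lower (4.14%), where chance alone gives 369 on average. All 3 halothane arrays lay above every control for 44 probe sets (0.595%) and below every control for 35 (0.474%), which is 1.07% of those tested. After median centring of the arrays that split was 54 above and 17 below, and the called probe sets were 6 higher and 0 lower. After quantile normalization they were 5 higher and 1 lower. The median log2 fold change was -0.03 over all probe sets, 43.8% of which had a value above 0, and 90% of values lay between -0.43 and 0.39. The 95% interval, before adjustment, extended by a median of 0.41 to either side, and after adjustment single values as large as 1.24 for Igf2r and 1.70 for Hist1h2af did not pass.

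**Figure D1:**
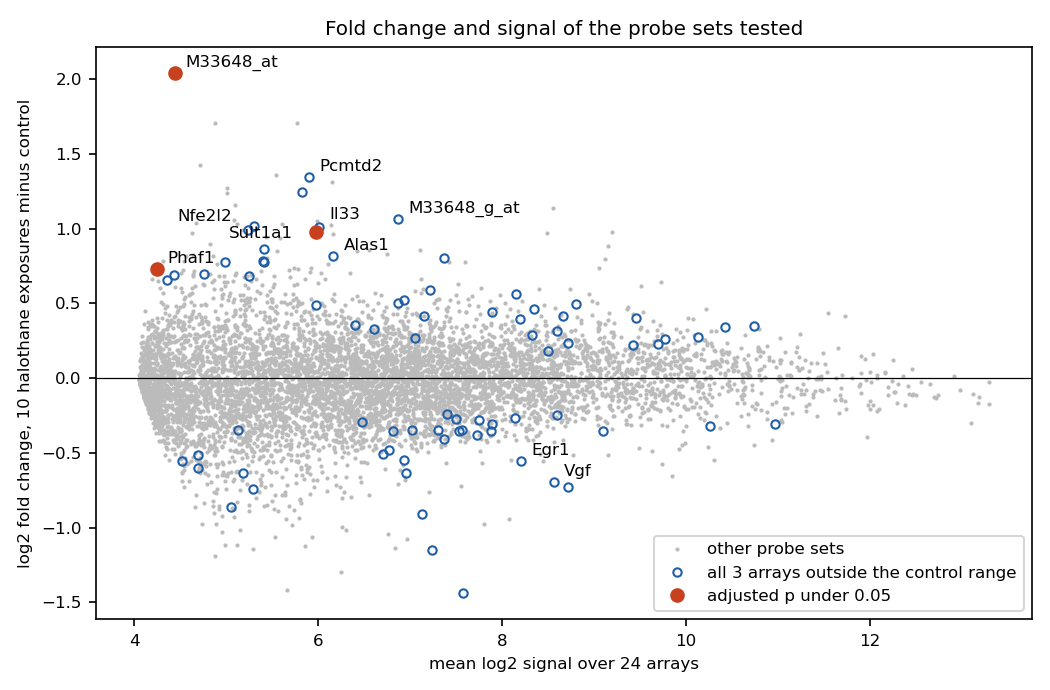
Log2 fold change after 10 halothane exposures against control (vertical axis) by mean log2 signal over the 24 arrays (horizontal axis), 1 point per tested probe set. Red points passed the test and also had all 3 halothane arrays above every control, and blue circles are the other probe sets whose 3 halothane arrays lay outside the control range. Of the 3 that passed, M33648_at and Phaf1 lie at the dim end and Sult1a1 has a higher mean signal, at a log2 fold change of 0.98.

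Sult1a1, which attaches sulfate to phenols and catechols, had signals of 98.2, 106.9 and 95.6 on the halothane arrays, and from 33.9 through a median of 52.05 to 77.6 in control. The groups did not overlap, and the 3 exposed arrays lay close together. Its log2 fold change was 0.98 ± 0.17 (SE, 1.97-fold, limma adjusted p = 0.0246). A second Sult1a1 probe set read 225.3, 242.5 and 276.2 after exposure and 87.9 to 184.9 in control, with a median of 146.1. These values did not overlap either, and the second probe set did not pass (log2 fold change 0.80, limma adjusted p = 0.0902). Without any 1 of the halothane arrays the first probe set kept its size (0.99, 0.93 and 1.01) and no longer passed, with limma adjusted p-values of 0.181, 0.201 and 0.118.

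M33648_at had signals of 49.2, 94.8 and 67.1 after 10 exposures and between 5.5 and 15.8 in control, with a median of 7.0. Every control lay under the floor and every exposed array well above it. Its log2 fold change of 2.04 ± 0.25 (SE, limma adjusted p = 0.00017) is measured against that floor, which makes 4.11-fold a lower bound, and the control spread of 0 at the floor enters its SE. With the floor at the 10th percentile the value was 3.15 and at the 40th it was 0.85, and it stayed past the threshold with any 1 array left out. M33648_g_at, a probe set of the same source sequence, read 173.1, 215.0 and 211.9 against 40.3 to 147.4 in control, with a median of 93.1. Here no value was near the floor and the groups again did not overlap. Its log2 fold change was 1.06 ± 0.28 (SE) and did not pass (limma adjusted p = 0.224).

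Phaf1 encodes a protein that binds the forming autophagosome membrane. It read 21.6, 38.6 and 29.3 after exposure and 7.4 to 19.9 in control, with a median of 16.45, and 6 of the 12 controls lay above the floor. The groups did not overlap, although both were dim and array 1 lay just above the highest control. It rose by 0.73 ± 0.13 on the log2 scale (SE, 1.66-fold, limma adjusted p = 0.0246). Without array 2 its value was 0.52 and without array 3 it was 0.72, and it did not pass in either fit (limma adjusted p = 0.272 and 0.131). The count of called probe sets was 2 without halothane array 1 or 2, 6 without control 5 or control 11, and 5 without control 6.

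**Figure D2:**
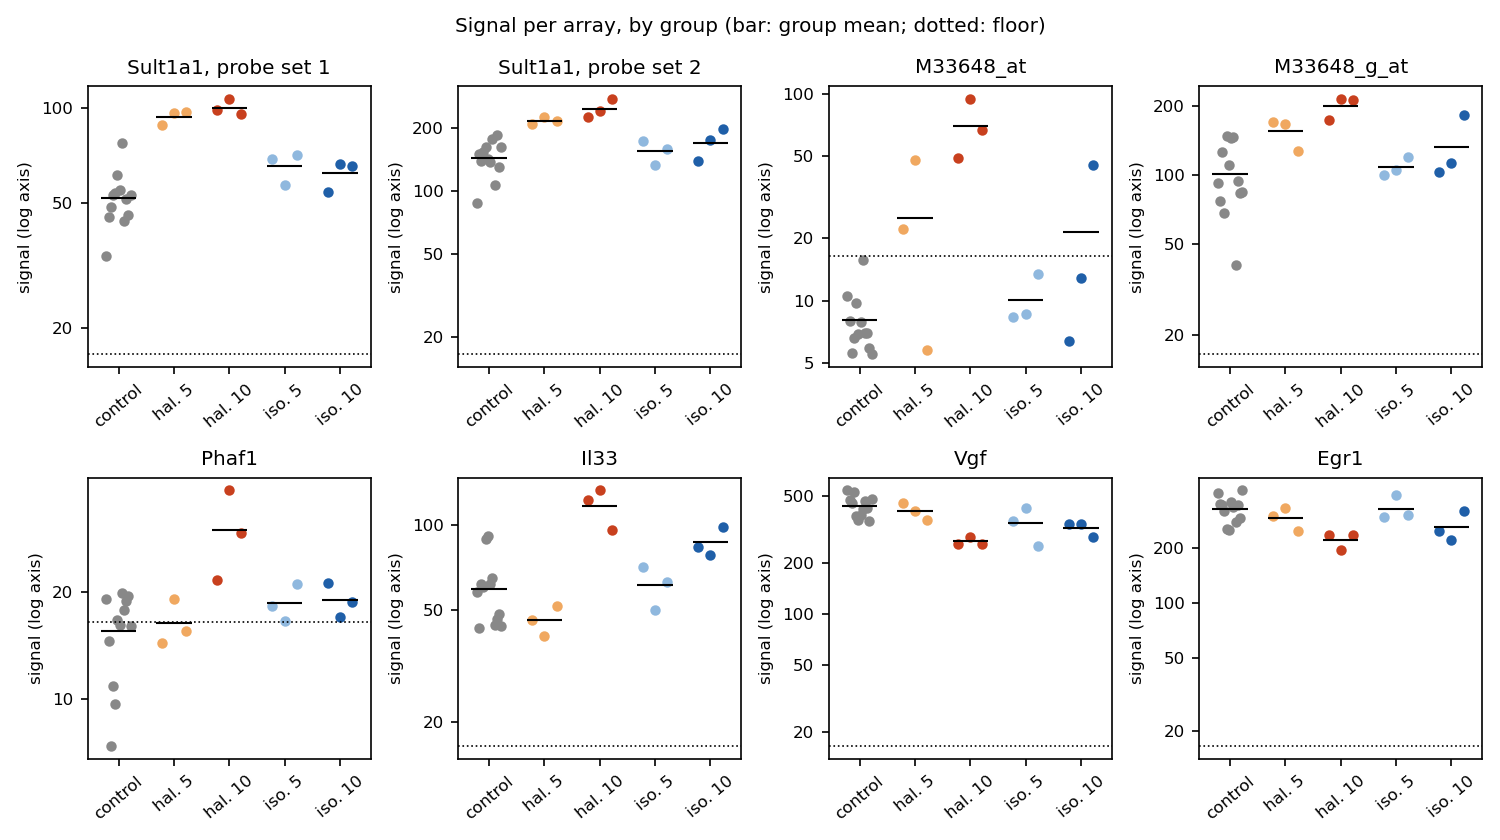
Deposited signal on every array (log axis) for 8 probe sets, with 12 control arrays and 3 arrays for each exposed group (hal., halothane; iso., isoflurane; 5 or 10 exposures). Bars are arithmetic group means and the dotted line is the floor of 16.5. For the 8 probe sets the 3 arrays with 10 halothane exposures lie outside the range of the 12 controls, above it in the first 6 panels and below it for Vgf and Egr1.

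Among the 12 higher genes with the lowest p-values that did not pass were Alas1, Gclm and Nfe2l2. Alas1, the first and rate-limiting enzyme of haem synthesis, read 120.8, 105.5 and 92.5 against 46.1 to 83.9 in control, with a median of 61.9. The groups did not overlap (log2 fold change 0.81, limma adjusted p = 0.0902), while a second Alas1 probe set stood at 0.03. Gclm, the modifier subunit of the enzyme that starts glutathione synthesis, read 38.2, 26.3 and 24.1 against 10.1 to 23.5, with a median of 16.7. Array 3 was barely above the highest control (log2 fold change 0.66, limma adjusted p = 0.108), and 2 other Gclm probe sets stood at -0.18 and -0.10. Nfe2l2, the transcription factor that drives antioxidant genes, read 61.1, 58.7 and 64.3 against 19.9 to 55.2, with a median of 30.8. Its values did not overlap with control on this probe set (0.99, limma adjusted p = 0.224) or on a second (0.70). Of 23 measured antioxidant genes, 11 were higher and 12 lower with a median of -0.01, and Gpx3, a secreted glutathione peroxidase, was at -0.42. The haem list split evenly, with 4 of 8 higher. In it Ppox, the enzyme before the last step of haem synthesis, read 38.8, 45.3 and 52.0 against 14.2 to 35.0 (0.78). A second Ppox probe set stood at 0.25, and Alas2, the erythroid form of the first enzyme, was at -0.49.

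Il33, a nuclear cytokine released from damaged glia and barrier cells, read 122.5, 132.8 and 95.8 after exposure and 43.0 to 91.8 in control, with a median of 59.0. Array 3 lay just above the highest control and the others further off, for a log2 fold change of 1.01 ± 0.21 (SE, limma adjusted p = 0.0902). Igf2r, the receptor that clears insulin-like growth factor 2 and sorts lysosomal enzymes, read 102.7, 103.6 and 83.3 against 18.4 to 79.2, with a median of 45.4 (1.24, limma adjusted p = 0.244). The proteoglycan gene Dcn (0.78), the calmodulin kinase subunit gene Camk2d (0.50) and the synaptic scaffold gene Lin7a (0.69) likewise had all 3 arrays above every control and did not pass. Other probe sets of Camk2d ranged from -0.04 to 0.36 and those of Dcn from -0.03 to 1.31. Those of Lin7a stood at 0.02 and 0.21. The cGMP phosphodiesterase gene Pde5a (0.45) and the histone gene Hist1h2af (1.70) overlapped with control, and 1 control reached 98.3 for the histone, above all 3 exposed arrays.

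Etfa, which passes electrons from fatty acid oxidation to the respiratory chain, read 149.0, 180.2 and 142.1 against 89.5 to 125.4, with a median of 111.0 (log2 fold change 0.53, limma adjusted p = 0.224). A second Etfa probe set overlapped with control, at 0.31. Idh3g, a subunit of the citric acid cycle enzyme isocitrate dehydrogenase, read 508.2, 531.5 and 460.0 against 328.0 to 439.3, with a median of 366.9 (0.42, limma adjusted p = 0.227). Cpt1a, which commits long-chain fatty acids to mitochondrial oxidation, read 151.2, 141.1 and 173.4 against 86.0 to 130.3, with a median of 105.7 (0.50, limma adjusted p = 0.282). On the probe sets whose signals are given, the 3 genes did not overlap with control and did not pass. Across the 35 measured genes of fatty acid oxidation, ketogenesis and lipid droplets 16 were higher and 19 lower, with a median of 0.00 and a range from -0.37 for the nuclear receptor Ppara to 0.74. Cpt2, the partner of Cpt1a inside the mitochondrion, stood at 0.44 and the lipid droplet gene Plin2 at 0.35. Of 55 oxidative phosphorylation genes 39 were higher, with a median of 0.06, and 2 were higher at an unadjusted p under 0.05, beside 3.38% of all probe sets. Ndufc2 (0.40) and Atp5f1a (0.23), subunits of complex I and of the ATP synthase, had all 3 arrays above every control, beside 0.595% of all probe sets.

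Among the lower genes 0 passed, and Vgf came nearest. This secreted peptide precursor of neurons and endocrine cells read 260.3, 286.6 and 260.1 after exposure and 354.8 to 541.2 in control, with a median of 441.35. The 3 arrays lay close together and well below the lowest control, for a log2 fold change of -0.70 ± 0.14 (SE, 0.617-fold, limma adjusted p = 0.0557). Vgf passed in 5 of 14 other settings, among them a block for the spike-in level, and in 3 of 15 fits with 1 array left out, those without control 5, 6 or 11. The limma adjusted p over these fits ran from 0.00629 to 0.253. The 32 measured granins, prohormone convertases and neuropeptide precursors had 11 higher and 21 lower members and a median of -0.07. Neuropeptide Y (Npy) read 212.1, 212.0 and 237.9 against 231.0 to 391.2, which overlapped only on array 3 (-0.38). Somatostatin (Sst) stood at -0.32 and cholecystokinin (Cck) at -0.28. Among the 26 genes of this list with a promoter in the table, 4 hold TGACGTCA, namely Vgf, Scg2, Cartpt and Ucn.

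Immediate early genes, which neurons switch on within minutes of activity, were lower in 24 of 27 measured members, with a median of -0.23. The mean log2 signal of the list was 6.50, 6.45 and 6.54 on the halothane arrays and 6.57 to 6.76 in control. All 3 arrays thus lay below every control, array 3 only just. At an unadjusted p under 0.05, 1 member was higher and 5 lower, beside 3.38% and 4.14% of all probe sets. After adjustment 0 passed, beside 0.0406% of all probe sets. Egr1, a zinc finger transcription factor, read 235.1, 194.4 and 234.9 on its probe set with the lowest p, against 250.2 to 413.7 in control, with a median of 338.2. The groups did not overlap there (-0.55, limma adjusted p = 0.224), and 3 other Egr1 probe sets stood at -0.63, -0.47 and -0.26. Junb, a subunit of the AP-1 transcription factor, read 103.3, 76.8 and 78.6 against 96.1 to 168.0 (-0.62), with array 1 inside the control range. Arc, which acts on AMPA receptor uptake at synapses, read 197.5, 234.5 and 338.2 against 268.3 to 431.6 (-0.41), with array 3 inside that range. Jun, another AP-1 subunit, went the other way at 221.3, 192.0 and 208.5 against 98.0 to 202.0 (0.53), with array 2 inside the range, and 1 of its 3 other probe sets stood at -0.35. The median was -0.20 without array 3 and -0.33 on the low spike-in arrays alone. It was smaller in size after median centring, at -0.19, and with the replicate number as a block, at -0.12.

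Other genes among the 12 lower ones with the lowest p-values had varied roles, and none passed. Krt18, a keratin of epithelia, read 24.3, 25.9 and 30.4 against 31.7 to 52.7 (-0.75), while a second Krt18 probe set, near the floor, stood at -0.13. Avpr2, a vasopressin receptor, read 21.3, 20.2 and 17.6 against 24.7 to 48.1 (-0.86), near the floor, while other Avpr2 probe sets stood at -0.27, the brightest, and 0.14. Krt18 and Avpr2 on these probe sets lay below every control on all 3 arrays, as did Traf7 (-0.64), a ubiquitin ligase gene, and Fut1 (-0.38), a fucosyltransferase gene. Hes5, a Notch target of neural progenitors and glia, overlapped with control at 91.9, 66.3 and 96.7 against 79.6 to 180.7 (-0.71), and its second probe set stood at -1.19. The Wnt receptor Fzd2 (-0.81), the apolipoprotein gene Apob (-1.01), the peptidase gene Tpp2 (-0.87), Ndrg4 (-0.39) and the neuronal chemokine gene Cx3cl1 (-0.49) also overlapped.

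Genes of drug metabolism did not move one way. Of 44 measured oxidising, reducing and hydrolysing enzymes 18 were higher and 26 lower, with a median of -0.07. At an unadjusted p under 0.05, 1 member was higher and 3 lower, beside 3.38% and 4.14% of all probe sets. Ephx2, which hydrolyses fatty acid epoxides, read 164.8, 252.1 and 190.1 against 210.4 to 393.5 (-0.55). The cytochrome P450 genes Cyp2a3 and Cyp2b15 stood at -0.89 and -0.42, and Maob, which oxidises monoamines, at 0.26. Among 37 conjugation enzymes 12 were higher and 25 lower, with a median of -0.17, which was -0.07 without array 3. Sult1a1 was 1 of 3 members higher at an unadjusted p under 0.05, where 4 were lower, beside 3.38% and 4.14% of all probe sets. Its relatives Sult1c3 (near the floor after exposure, against 10.8 to 52.9) and Sult5a1 (282.1, 198.7 and 251.2 against 235.6 to 350.1) were lower, at -0.84 and -0.31. The glutathione transferase Gsta3 was at -0.85, with 2 of the 3 exposed arrays under the floor.

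Sult1a1 is also on the list of genes known to respond to corticosterone. There 12 of 14 measured members were higher, beside 43.8% of all probe sets, with a median of 0.17. That list had 2 members higher and 0 lower at an unadjusted p under 0.05, beside 3.38% and 4.14% of all probe sets. On the brighter probe sets of the list 0 passed, beside 0.0406% of all probe sets. The list mean was 6.96, 7.10 and 7.19 on the halothane arrays and 6.64 to 7.05 in control, so array 1 lay within the control range and the others above it. Errfi1, a feedback inhibitor of the EGF receptor, stood at 0.37, the kinase gene Sgk1 at 0.43 and the transcription factor gene Klf9 at 0.17. Klf9 turned to -0.02 on the low spike-in arrays alone. The receptor genes themselves, Nr3c1 and Nr3c2, were at 0.29 and 0.07. None of the 11 members with a promoter in the table holds the palindrome in these 250 bases, beside 0.373% of all promoters. At so low a share, its absence from 11 promoters says little about the list.

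The channels and receptors on which volatile anaesthetics act showed 0 members past the threshold, beside 0.0406% of all probe sets. With so low a share, a count of 0 says little about lists of this size. Of 17 GABA-A and glycine receptor genes 10 were higher, with a median of 0.06. Gabra3, an alpha subunit, read 57.8, 70.8 and 34.7 against 67.7 to 110.2 (-0.66), while Gabra6, the alpha subunit of cerebellar granule cells, read 857.7, 1014.1 and 1036.2 against 166.1 to 990.0 (0.98). For Gabra6 the lowest exposed value lay within the wide control range and the others lay above it. Ionotropic glutamate receptor genes had 7 of 16 higher and a median of -0.07, which was 0.20 without array 3. In that family the NMDA receptor subunit Grin2a stood at -0.76 and the AMPA receptor subunits Gria1 and Gria4 at 0.47 and 0.72. Metabotropic glutamate receptors and their scaffolds had 5 of 17 higher, with a median of -0.08, which was 0.06 without array 3 and -0.20 without array 2. Genes that make or take up GABA and glutamate had 8 of 14 higher, with a median of 0.03.

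Of 47 potassium channel genes 15 were higher and 32 lower, with a median of -0.07, and 1 was higher and 5 lower at an unadjusted p under 0.05, beside 3.38% and 4.14% of all probe sets. Kcnj8, the pore of a channel that ATP closes, read 35.5, 44.2 and 26.5 against 34.1 to 85.8 (-0.78), and Kcnc1, a channel of fast-firing neurons, read 450.2, 522.7 and 708.2 against 223.7 to 599.6 (0.60). The voltage-gated sodium, calcium and pacemaker channels had 11 of 23 higher, with Scn7a at -0.66 and Scn1a at 0.60. Vesicle fusion genes had 13 of 38 higher and a median of -0.05, which was 0.02 without array 3. Vamp2, the vesicle protein cut by tetanus toxin, read 1697.2, 1559.8 and 1638.7 against 1709.3 to 2845.2 (-0.31), below every control. A second Vamp2 probe set overlapped with control, at -0.13.

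Acetylcholine signalling was lower in 22 of 23 measured genes, with a median of -0.22, beside 56.2% of all probe sets. At an unadjusted p under 0.05, 4 members were lower and 0 higher, beside 4.14% and 3.38% of all probe sets. The list mean was 5.48, 5.76 and 5.71 on the halothane arrays and 5.59 to 6.10 in control, so only array 1 lay outside the control range, and without it the median was -0.14. On the low spike-in arrays alone the median was -0.33, and with the replicate number as a block it was -0.05. Chrm3, a muscarinic receptor coupled to calcium release, read 173.1, 191.5 and 212.8 against 213.6 to 310.7, with a median of 232.95, which did not overlap (-0.35, limma adjusted p = 0.436). The nicotinic subunits Chrna1 and Chrnb2 stood at -0.40 and -0.43 and Ache, which breaks down acetylcholine, at -0.33. Many of these genes are dim in whole brain, Chrnb2 for example at 18.1 to 46.9 in control. Monoamine genes were lower in 27 of 34 members, with a median of -0.15. Among them the receptor genes Adra1a and Drd5 were at -0.61 and -0.34, and Th, the rate-limiting enzyme of dopamine synthesis, was at -0.45. G protein subunits and their regulators had 6 of 25 higher, with a median of -0.12, which was -0.05 without array 3.

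**Figure D3:**
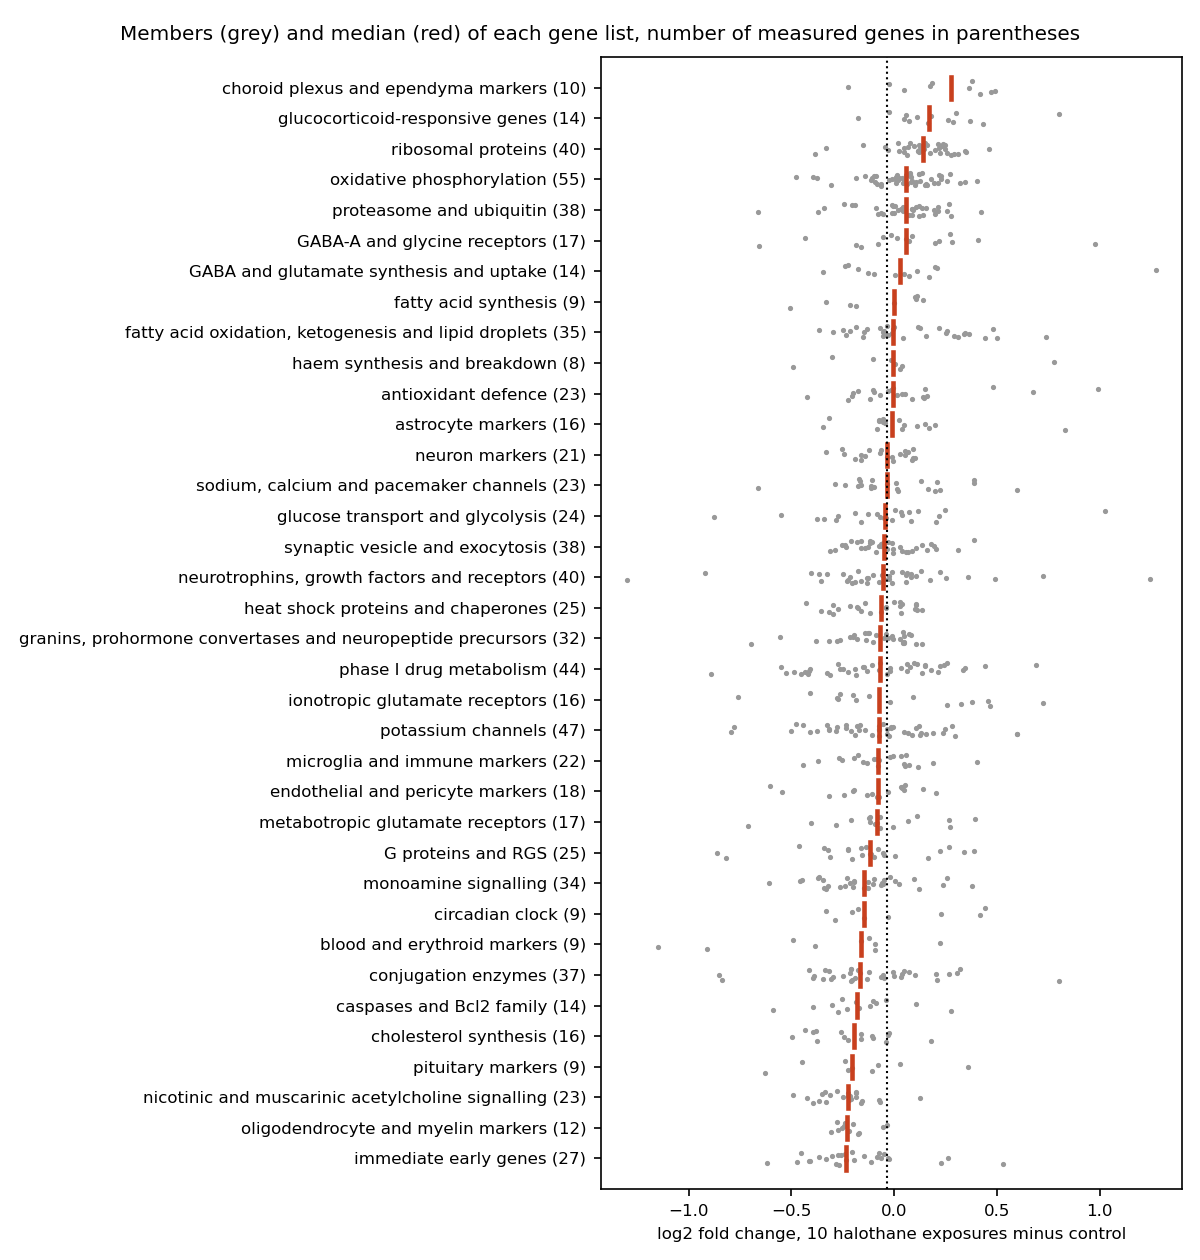
Log2 fold change after 10 halothane exposures against control for each measured gene (grey points, 1 probe set per gene) and the median (red bar) of the gene lists, with the number of measured genes in parentheses. The dotted line is the median over all genes, -0.03. Medians run from -0.23 for immediate early genes to 0.27 for choroid plexus markers, and members of most lists lie on both sides of the dotted line.

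Lipid, protein and energy genes differed in direction by list. Cholesterol synthesis was lower in 15 of 16 measured genes, beside 56.2% of all probe sets, with a median of -0.19. At an unadjusted p under 0.05, 4 members were lower, beside 4.14% of all probe sets. Lss, which closes the sterol rings, read 114.8, 127.9 and 92.9 against 105.0 to 229.2 (-0.50). Acat2 (-0.39), which joins acetyl-CoA units at the start of the pathway, and the regulators Insig1 (-0.38) and Srebf1 (-0.43) also overlapped with control. Fasn, the fatty acid synthase, stood at -0.51, although its own list of 9 genes had a median of 0.00. Ribosomal protein genes were higher in 35 of 40 members, beside 43.8% of all probe sets, with a median of 0.14. Rpl14 (0.29), Rpl24 (0.35) and Rpl26 (0.34) had all 3 arrays above every control, beside 0.595% of all probe sets. The list mean was 9.42, 9.47 and 9.81 against 9.28 to 9.64 in control, so array 3 alone lay outside, and the median without it was 0.09. Proteasome and ubiquitin genes had 24 of 38 higher (median 0.06, and 0.12 without array 3). Heat shock proteins and chaperones had 9 of 25 higher (median -0.07, and 0.02 without array 3). The small heat shock protein Hspb1, lower than every control on 1 probe set (-0.35), was at 0.60 on another. On further Hspb1 probe sets, brighter than the one at 0.60, it was at -0.27 and -0.12. Glucose transport and glycolysis had 10 of 24 higher (median -0.04).

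Growth factor genes and their receptors held the widest spread of the lists described, from -1.30 to 1.24, with 15 of 40 higher. At the low end Igf1, a growth factor made in brain and liver, read 36.5, 34.9 and 32.2 against 35.7 to 167.5 in control (-1.30, limma adjusted p = 0.482), and its arrays lay at the bottom of a wide control range. Pdgfb, a growth factor for pericytes, was at -0.92 and the EGF receptor gene Egfr at 0.72, the latter turning to -0.01 with the floor at the 40th percentile. Caspases and the Bcl2 family had 2 of 14 higher and a median of -0.18. Among 9 circadian clock genes 3 were higher. The clock repressors Bhlhe41 (301.8, 305.8 and 277.6 against 180.0 to 271.2) and Nr1d2 (239.5, 224.2 and 171.4 against 126.3 to 204.9) stood at 0.44 and 0.42, and the sources used here do not give the hour of tissue collection.

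Blood markers lay lower on all 3 halothane arrays, while choroid plexus and oligodendrocyte markers stood outside the control range on array 3 alone. Neuron markers on array 3 and microglia markers on arrays 1 and 2 also lay below every control. The part of these markers in the results above was not tested. Blood and erythroid markers were lower in 8 of 9 members, beside 56.2% of all probe sets, with a median of -0.16. Of these members 2 lay below every control on all 3 arrays, beside 0.474% of all probe sets. The beta globin gene Hbb-b1 read 78.3, 98.9 and 72.0 against 119.2 to 373.9, with a median of 169.9 (-1.15), and Hbb was at -0.91. The list mean was 5.81, 5.89 and 5.78 on the halothane arrays and 5.95 to 6.43 in control, so every array lay below the controls. Hbegf, a growth factor gene and no blood marker, was let into this list by a name pattern. Choroid plexus and ependyma markers were higher in 8 of 10, with a median of 0.27, and their mean was 7.11, 7.25 and 7.48 against 6.86 to 7.34. Ttr, the thyroid hormone carrier made by choroid plexus, read 3461.1, 4093.0 and 5615.8 against 2268.6 to 3951.8 (0.42), and the median of the list without array 3 was 0.10. Oligodendrocyte and myelin markers were lower in 12 of 12, with a median of -0.23 and a mean of 8.96, 9.10 and 8.52 against 8.89 to 9.40. Array 3 alone lay outside the control range, and without it the median was -0.03.

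Astrocyte markers split evenly, with 8 of 16 higher and a mean of 9.28, 9.33 and 9.41 against 9.11 to 9.47, and the water channel gene Aqp4 was at 0.83. Microglia and immune markers had 8 of 22 higher (median -0.08; mean 5.62, 5.65 and 5.82 against 5.68 to 5.92), endothelial and pericyte markers 7 of 18 (-0.08), pituitary markers 2 of 9 (-0.20) and neuron markers 8 of 21 (-0.03). Across the lists described, 0 members passed on the brightest probe set of the gene, beside 0.0406% of all probe sets.

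**Figure D4:**
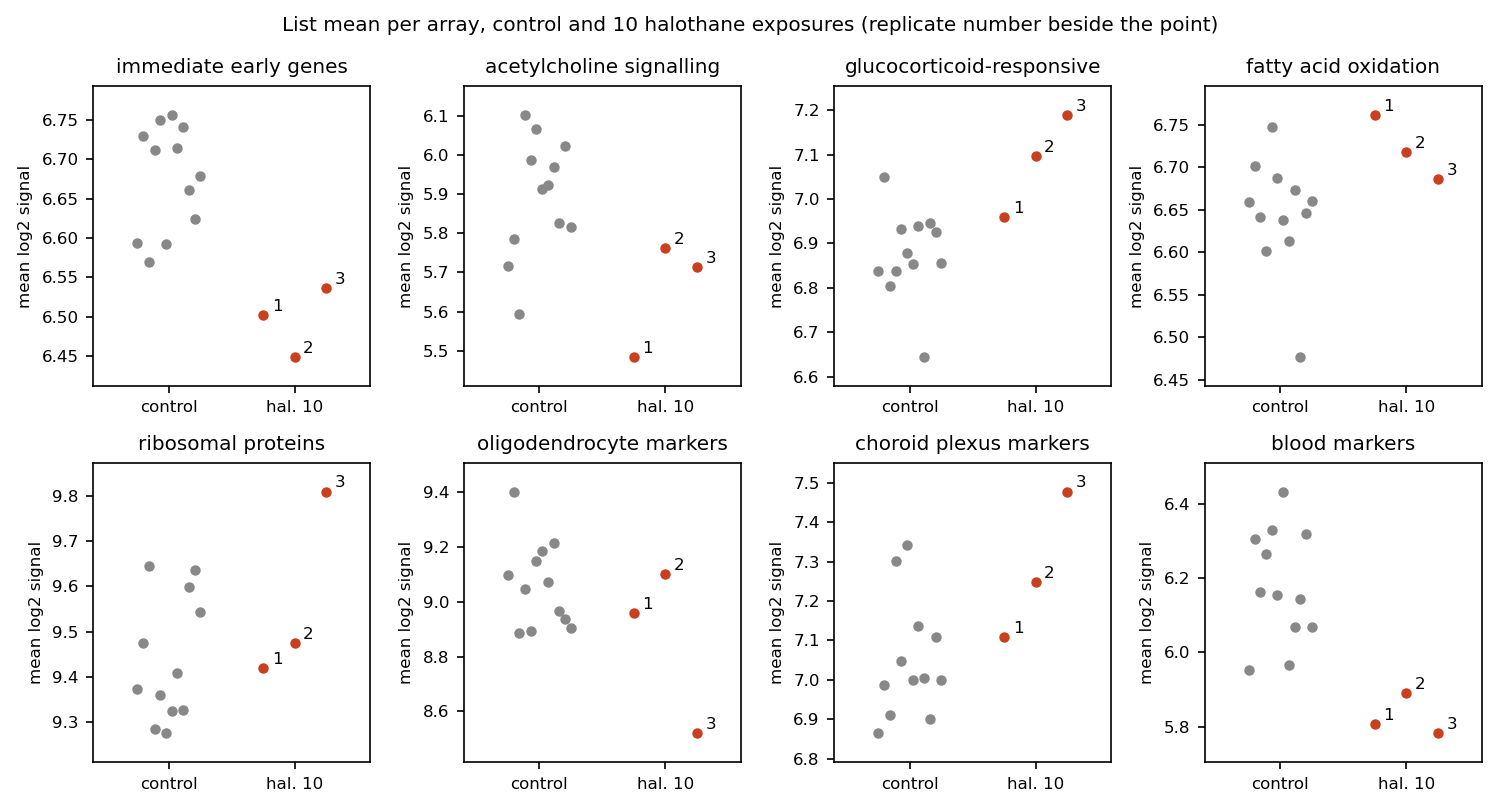
Mean log2 signal of 8 gene lists on each control array (grey, n = 12) and each array with 10 halothane exposures (red, n = 3, replicate number beside the point); each panel has its own vertical range. The 3 red points lie below every control for immediate early genes and blood markers, and the point of array 3 stands apart for ribosomal proteins, oligodendrocyte markers and choroid plexus markers.

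The other exposed groups show whether the same probe sets differed after a shorter course or another agent. They had 5 halothane exposures over 2.5 days, or 5 or 10 exposures to 1.0% isoflurane on the same schedules (n = 3 each), and their comparisons with control share the 12 controls used above, so values are set side by side only. Against control, 669 probe sets had a limma p under 0.05 before adjustment after 10 isoflurane exposures, beside 556 after 10 halothane exposures. The counts were 261 after 5 halothane exposures and 158 after 5 isoflurane exposures. Sult1a1 read 88.1, 96.1 and 97.4 after 5 halothane exposures, above every control, and 54.0, 66.4 and 65.4 after 10 isoflurane exposures, within the control range. The difference of 10 from 5 halothane exposures was 0.09 (95% interval -0.36 to 0.55), and that from 10 isoflurane exposures was 0.70 (0.24 to 1.16, limma adjusted p = 1). M33648_at read 22.2, 47.7 and 5.8 after 5 halothane exposures and 6.4, 12.9 and 45.1 after 10 isoflurane exposures. Of these values, 22.2, 47.7 and 45.1 also lay above the floor and above every control. The differences of M33648_at were 1.39 (0.74 to 2.04, limma adjusted p = 0.35) and 1.56 (0.91 to 2.21, limma adjusted p = 0.36).

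Phaf1 stood at -0.02 after 5 halothane exposures and 0.11 after 10 isoflurane exposures, with a difference of 0.74 between the halothane courses (0.41 to 1.08, limma adjusted p = 0.303). Il33 read 45.9, 40.6 and 51.5 after 5 halothane exposures and 83.4, 78.4 and 98.5 after 10 isoflurane exposures. For this cytokine the halothane courses did not overlap and differed by 1.34 (0.78 to 1.90, limma adjusted p = 0.176). Vgf was at -0.10 after 5 halothane exposures and -0.44 after 10 isoflurane exposures, with differences of -0.59 (-0.95 to -0.24, limma adjusted p = 0.893) and -0.26 (-0.61 to 0.10). Igf2r was similar in size in 3 groups, at 1.24 after 10 halothane, 1.16 after 5 halothane and 1.33 after 10 isoflurane exposures. The immediate early gene median was -0.23 after 10 halothane exposures, -0.01 after 5, -0.17 after 10 isoflurane exposures and -0.01 after 5. For acetylcholine signalling the medians in the same order were -0.22, -0.06, -0.15 and -0.08, and for blood markers -0.16, 0.04, -0.16 and 0.01.

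Between 10 and 5 halothane exposures 1 of 7389 probe sets (0.0135%) passed by limma, and 278 (3.76%) had a p under 0.05 before adjustment, 137 higher after 10 exposures (1.85%) and 141 lower (1.91%). That probe set, of the glucuronosyltransferase gene Ugt2b35, read 4.7, 10.2 and 3.9 after 10 exposures and 28.7, 74.0 and 30.6 after 5. After 10 exposures it thus lay under the floor on every array, as on all 12 controls (difference -1.28, limma adjusted p = 0.0401). The difference is thus measured against the floor, and the call was lost with no filter and without any 1 control. Between 10 halothane and 10 isoflurane exposures 0 probe sets (0.0%) passed by limma, and 230 (3.11%) had a p under 0.05 before adjustment, 89 higher with halothane (1.2%) and 141 lower (1.91%). The agents were given at different concentrations, 0.8% and 1.0%, so this comparison does not separate agent from dose.

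**Figure D5:**
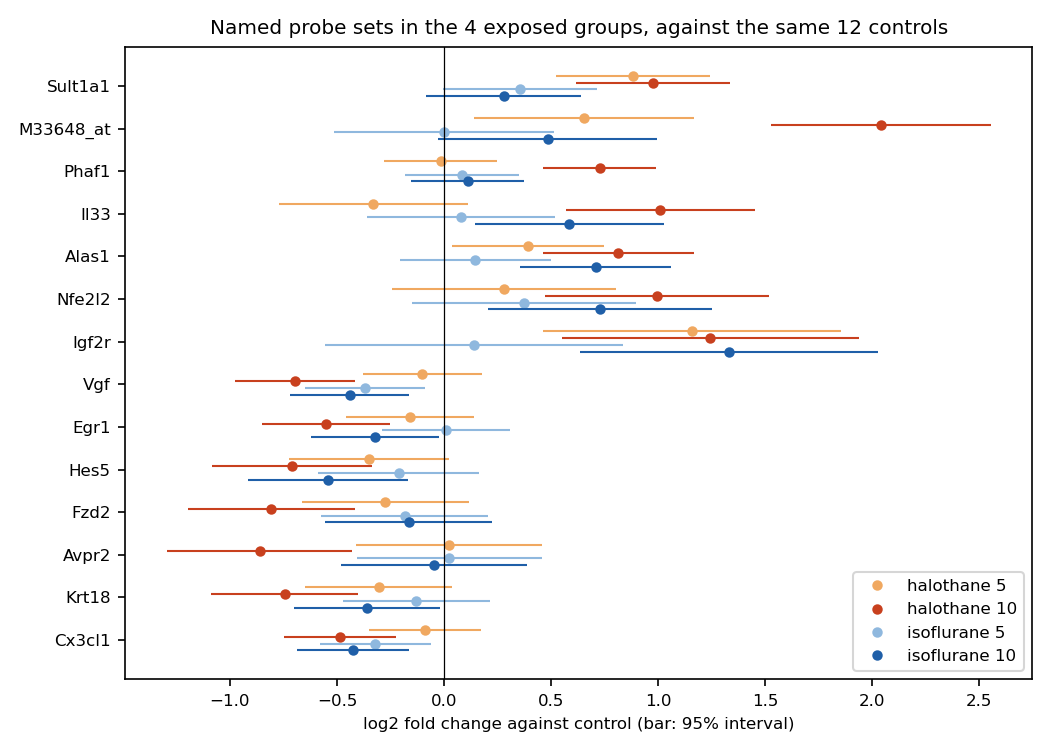
Log2 fold change against control with its 95% interval (horizontal bar) for 14 probe sets in the 4 exposed groups, which share the same 12 controls; the first 3 are the probe sets that passed after 10 halothane exposures and the others did not pass. The red points (10 halothane exposures) stand apart from the other groups for M33648_at, Phaf1 and Avpr2, while Sult1a1 after 5 and 10 halothane exposures and Igf2r after 5 and 10 halothane and 10 isoflurane exposures lie close together.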

How the data were processed

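The deposited table holds 1 linear intensity per probe set and array. The authors' probe summary, scaling software and detection calls are not given in the sources used here. Equal trimmed means of the arrays led to the deposited scaling being kept. Intensities under 16.5, the 25th percentile of the table, were set to that value and log2 was taken, so a fold change against values at the floor is understated. The 59 AFFX controls were dropped, and a probe set was tested where 3 or more arrays exceeded the floor. Genes were named from the platform annotation: 6018 of 7389 tested probe sets had 1 symbol, 267 several and 1104 none, and 6985 of 7006 single-gene probe sets of the whole table were found by Entrez identifier in the RefSeq gene table, with 0 symbols changed.

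All 24 arrays, in 5 groups without covariates, entered 1 linear model in limma 3.58.1 under R 4.3.3 (lmFit, contrasts.fit, then eBayes with trend = TRUE). Tests were two-sided, and the script was first tested on simulated data. Adjusted p-values are Benjamini-Hochberg values over the 7389 probe sets, with a call under 0.05. SE and 95% intervals come from that fit. Counts of probe sets with all 3 halothane arrays outside the range of the 12 controls carry no p-value. Each gene counts in a list through its probe set with the highest mean signal, and lists are described by counts and medians only. Tables and figures were made with Python 3.11.15, pandas 2.3.3 and numpy 2.4.6.

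The named genes are every probe set that passed, the 12 rises and 12 falls with the lowest p that did not pass, with 1 probe set per gene, up to 4 members with the lowest p per list, and other probe sets of these genes. Other list members and the probe set M33648_g_at were named after their values were seen. The comparison, gene lists and markers were chosen with earlier results of these data known, so the direction of a list is not independent evidence. Alternatives were quantile normalization, median centring, other floors, an added offset of 16 in place of the floor, no filter and a strict filter, no trend, array weights, only the groups compared, controls 10 to 12 left out, the replicate number or the spike-in level as a block, the low spike-in arrays alone, and each array left out. For arrays, their number limits the precision.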

Additional observations from a re-analysis of the deposited data

Results flagged for a closer look

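Ugt2b35, which attaches glucuronate to lipophilic compounds, was the probe set whose level differed between the 2 halothane courses by a test of the difference itself. The log2 difference of 10 minus 5 exposures was -1.28 (limma adjusted p = 0.0401), from signals under the floor after 10 exposures and of 28.7, 74.0 and 30.6 after 5. All 3 arrays after 10 exposures and all 12 controls were set to the floor, so their spread entered the fit as 0, and the probe set was tested because of the arrays with 5 exposures. The count of called probe sets in this comparison was 0 with either other floor, with no filter, with only the groups compared and without any 1 of the 12 controls. Without any 1 of the arrays with 10 exposures, 0 probe sets were called lower.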

How the results depend on the processing

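The probe sets called against control numbered 3 in the main setting, 6 after quantile normalization and after median centring, 10 with the floor at the 40th percentile, 5 without the intensity trend, 5 when spike-in level was a block, 33 with array weights (12 higher, 21 lower), and 1 with the strict filter, with only the groups compared, without controls 10 to 12 and on the low spike-in arrays alone. With 1 array left out they numbered 2 to 6. The main fit did not pair samples by replicate number. Deviations of same-numbered halothane and control arrays correlated at 0.05, -0.01 and 0.27, and those of differently numbered ones at -0.29 to 0.06. Halothane array 3 and control 3 both had the higher spike-in level, as did replicate 3 of each other exposed group. Replicate number is thus not free of spike-in level. With the replicate number as a block, 15 probe sets (10 higher, 5 lower) were called. Probe sets outside the range of all controls numbered 79 in the main setting, 142 without controls 10 to 12, 839 on the low spike-in arrays (2 against 7 arrays) and 79 to 350 with 1 array left out, where fewer arrays make separation easier by construction. Between 10 and 5 halothane exposures the count was 1, 2 with array weights, and 0 with either other floor, the offset, no filter, the strict filter, no trend, only the groups compared, without controls 10 to 12, the replicate block and the low spike-in arrays, and 0 to 2 with 1 array left out. Between 10 halothane and 10 isoflurane exposures it was 0 in all other settings and 0 to 1 with 1 array left out.

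M33648_at missed the threshold under the replicate block (2.04, limma adjusted p = 0.0809). Sult1a1 did so with only the groups compared (0.98, limma adjusted p = 0.145), without controls 10 to 12 (0.97, 0.0553) and on the low spike-in arrays (0.90, 0.189). Phaf1 did so in 6 of 12 other settings, with limma adjusted p-values from 0.0553 to 0.353. Signs turned, for genes that had not passed, under the replicate block for Cacna1b (0.049), Ctss (-0.016), Grm4 (-0.044), Hlf (0.018), Psmb9 (0.052) and Ptprc (0.013), with the floor at the 40th percentile for Egfr (-0.0086), on the low spike-in arrays for Hpca (0.020), Klf9 (-0.020) and Nefl (0.011), without halothane array 1 for Icam1 (-1.05 to 0.037 with 1 array left out) and without array 2 for Psmb8 (-1.04 to 0.024). The cause was not tested. Over all lists and settings, 1038 medians moved by less than the control spread of the list mean and 42 by more.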

Other observations

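Of the genes with a probe set outside the control range, 37 had further probe sets inside it, 61 in all. Of these 61, 45 had a fold change in the same direction and 16 in the opposite one. For 3 genes, Sult1a1, Egr1 and Nfe2l2, 2 probe sets lay outside the control range. Genes in this set that were not described above, chosen after their values were seen, include the receptor tyrosine kinase gene Ret (63.8, 66.8 and 58.6 after 10 halothane exposures against 19.4 to 58.1 in control, log2 fold change 0.78, and -0.23 on a brighter probe set), the retinol carrier gene Rbp4 (173.1, 204.1 and 206.6 against 107.2 to 165.8, 0.59), the polyol dehydrogenase gene Sord (72.8, 77.4 and 72.8 against 17.6 to 65.2, 1.02, and 0.06 on a brighter probe set) and the vesicular acetylcholine transporter gene Slc18a3 (99.5, 108.6 and 117.0 against 119.8 to 174.6, -0.35). None of them passed.

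Probe sets without a symbol in the annotation used also stood outside the control range. X56325mRNA_s_at read 86.4, 105.6 and 85.6 against 124.6 to 532.8 in control (-1.44), and rc_AI179576_s_at read 267.4, 301.1 and 316.0 against 324.2 to 918.9 (-0.73). Neither passed.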
